A study of Homo sapiens with 48 samples.

Results

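Metallothioneins are small, cysteine-rich proteins that bind zinc and copper, and the genes examined here are the human metallothioneins MT1A, MT1E, MT1F, MT1G, MT1H, MT1M, MT1X and MT2A together with MTF1, the zinc-sensing transcription factor that drives them. The members were taken by gene symbol: every probe whose symbol in the platform annotation is 1 of these 9 names. Of the 9 symbols, 8 had a probe, out of 20046 symbols on the array, and MT1A is not analysed here. The 8 genes had 10 probes, of which 7 passed a filter on dim probes (above background on at least 4 of 48 arrays) and were tested. They belong to 6 genes: MT1E, with 2 probes called MT1E bright and MT1E dim here, MT1G, MT1H, MT1X, MT2A and MTF1. MT1F, MT1M and the MT1H dim probe did not pass. A further 5 family symbols (MT1B, MT1IP, MT1L, MT3 and MT4), each with 1 probe, were above background on 0 arrays.

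The cells were a clone of the human osteosarcoma line U2OS with a stably expressed wild-type rat glucocorticoid receptor alpha, so that every group carries the rat receptor and all results come from 1 clone. The study asked how Hic-5, a receptor coregulator encoded by TGFB1I1, alters glucocorticoid signalling. Groups had no siRNA (NI), a nonspecific siRNA (siNS) or the single siRNA siHic5_2 against Hic-5, the transfected wells at 60 pmol each, and each state was sampled at 0, 2, 4 and 24 h of dexamethasone, a synthetic glucocorticoid. Each of the 12 groups had 4 arrays, 48 Illumina HT-12 v4 bead arrays on 6 slides. Cells were harvested together, so the hormone was added sooner after transfection in the 24 h groups than in the 2 and 4 h groups. Whether the 4 replicates of a group came from different cultures is not stated in the labels. The p-values therefore speak only to the spread among these arrays, and that spread may be technical.

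Cells keep free zinc very low, and metallothioneins act as an inducible store that takes up zinc when it rises and gives it back when it falls. Zinc activates MTF1, which binds metal response elements in metallothionein promoters. Glucocorticoids and oxidative stress are other known inducers of the family, and MT2A is a long-known glucocorticoid-responsive human metallothionein. In the human genome the functional genes lie side by side on chromosome 16.

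The member genes of the cluster stand in tandem between positions 56608584 and 56684196 of chromosome 16 (GRCh38.p14), with MT2A at chr16:56608584-56609497, MT1E at chr16:56625781-56627112, MT1M at chr16:56632659-56633981, MT1F at chr16:56657959-56659303, MT1G at chr16:56666730-56668065, MT1H at chr16:56669814-56671129 and MT1X at chr16:56682470-56684196. MTF1 lies apart, at chr1:37809574-37859592. RefSeq promoter windows were at hand for 4 of the 9 members (MT1H, MT1X, MT2A and MTF1), and the 250 bases before the gene start are shown for the 3 metallothioneins because these 3 genes behaved differently from each other in the arrays. Capitals mark matches to the core of the metal response element, searched as TGCACNC or TGCGCNC on both strands. All 3 windows are on the plus strand and are written 5′ to 3′.
MT2A, chr16:56608334-56608583: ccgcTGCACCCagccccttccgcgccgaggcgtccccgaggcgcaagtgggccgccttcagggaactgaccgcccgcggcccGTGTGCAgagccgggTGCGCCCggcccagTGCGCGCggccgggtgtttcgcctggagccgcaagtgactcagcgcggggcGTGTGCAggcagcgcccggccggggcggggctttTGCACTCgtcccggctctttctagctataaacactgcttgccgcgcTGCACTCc
MT1X, chr16:56682220-56682469: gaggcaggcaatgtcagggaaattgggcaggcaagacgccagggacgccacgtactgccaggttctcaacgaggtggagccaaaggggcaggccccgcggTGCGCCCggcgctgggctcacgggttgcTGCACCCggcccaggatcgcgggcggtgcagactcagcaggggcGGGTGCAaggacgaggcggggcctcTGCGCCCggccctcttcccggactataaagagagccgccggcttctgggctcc
MT1H, chr16:56669564-56669813: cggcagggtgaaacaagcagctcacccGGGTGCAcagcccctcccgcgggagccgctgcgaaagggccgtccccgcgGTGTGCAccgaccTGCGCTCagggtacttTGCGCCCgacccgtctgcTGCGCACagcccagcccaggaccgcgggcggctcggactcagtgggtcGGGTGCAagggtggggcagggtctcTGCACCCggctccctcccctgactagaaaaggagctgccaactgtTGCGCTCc
The core matched 7 times in the MT2A window, 4 times in MT1X and 8 times in MT1H, with 0 overlaps between matches. A match is common in promoters at large: 24.8% of 35116 windows of the same length held at least 1. Windows with 4 or more matches made up 0.37% and those with 5 or more 0.12%. The MTF1 window held 0. The glucocorticoid response element, searched as the half-sites AGAACA and TGTTCT with 3 bases between them, and in a relaxed form as GNACA and TGTNC with 3 bases between them, which includes the full form, was found in none of the 4 windows. The relaxed form was in 0.327% of all windows and the full form in 0.00285%. Bases further upstream than 250 were not searched, so an element lying there would be missed. The core of the antioxidant response element, TGACNNNGC, had 1 match in MT1X and 1 in MT2A, and 10.9% of all windows held it.

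Values are normalized log2 intensities, on which a step of 1 is a 2-fold difference in signal, and levels are compared within a probe, not between probes. The Hic-5 probe was lowered as labelled: its level in siHic5_2 was below siNS by a log2 difference of -3.41 at 0 h and -3.33 at 2 h, and at 4 and 24 h, where it was above background on 0 of 4 arrays, it was at least 10.6-fold and 5.71-fold lower. The median intensity of an array lay between 133.6 and 193, with 31.7 to 38.3% of its probes above background. Of the fixed markers of the labelled lineage, RUNX2, ALPL, COL1A1, SPARC and VIM were above background on 48 arrays, SPP1 on 39 and COL1A2 on 1. Among markers of other cell types, PTPRC, CD3E and LYZ of blood, CDH5 of endothelium and CDH1 and KRT19 of epithelium were above background on 0 arrays, while EPCAM was on 48, ELF3 on 28, VWF on 19, KDR on 7, CD14 on 5 and PECAM1 on 3. NI and siNS arrays did not separate in the limma fit: 0 of 20912 probes differed between them over the 4 times. At an unadjusted p under 0.05 there were 380, none of these a member. Same-numbered NI and siNS arrays deviated together, which this fit does not use, so small differences could be missed. With the replicate number as a block the count of probes passing was also 0. As the samples are bulk RNA, fewer cells making a transcript and less transcript per cell cannot be told apart.

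**Figure D1:**
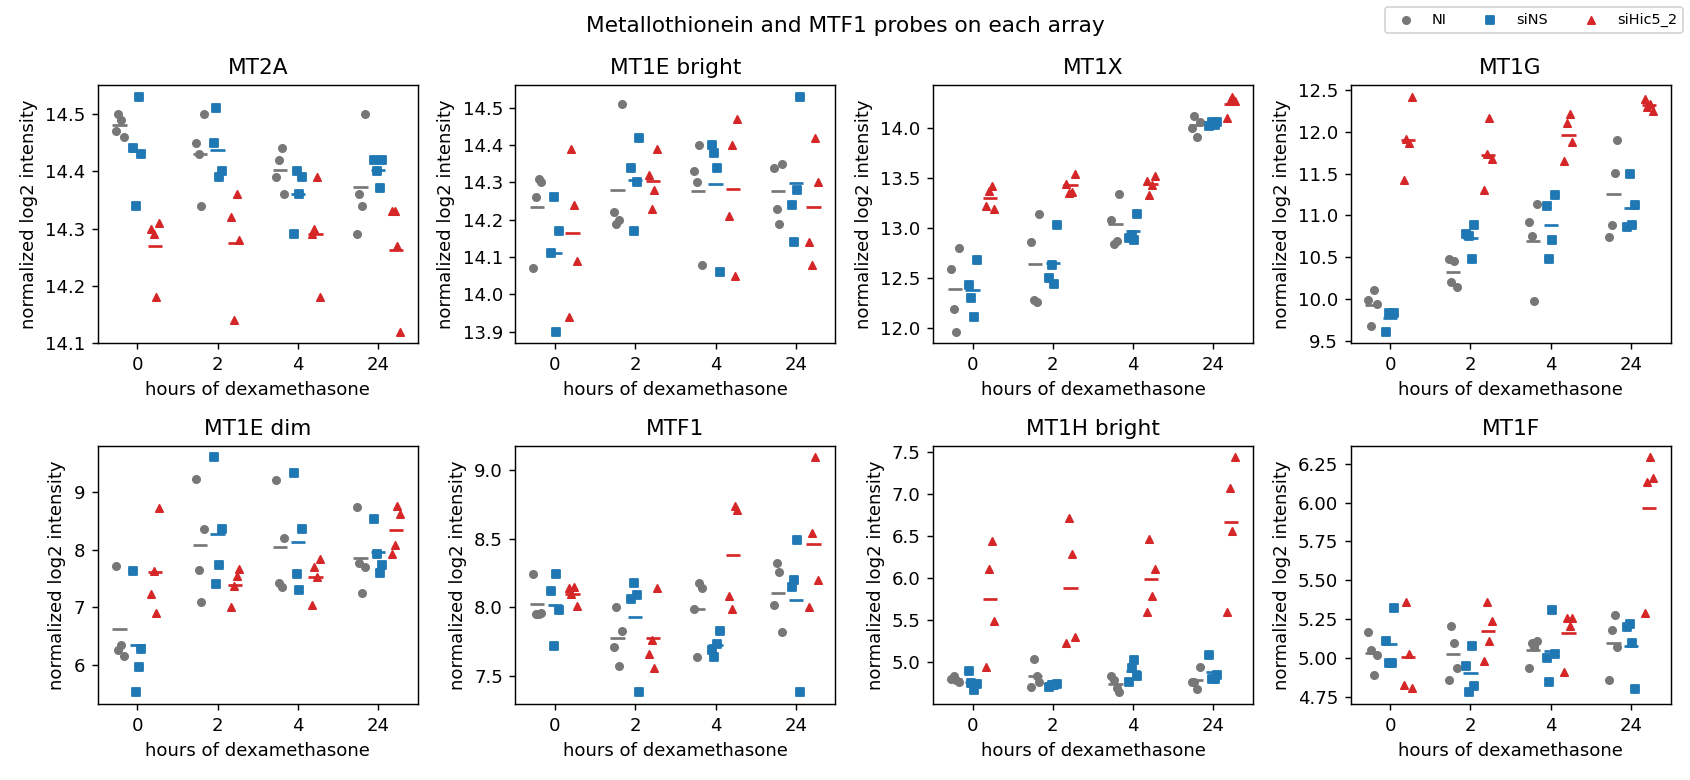
Normalized log2 intensity (vertical axis) of 8 metallothionein and MTF1 probes against hours of dexamethasone, with 1 point per array and a bar at the mean of each group of 4; vertical scales differ between panels. MT1G in siHic5_2 (11.30 to 12.42) lies above siNS at each time, MT1X climbs to about 14 by 24 h in all 3 states, and MT1H is above background only on siHic5_2 arrays.

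With siHic5_2, MT1G and MT1X were higher than in siNS, while the abundant MT2A and the bright MT1E probe stayed within 0.17 of siNS at every time. As a single siRNA against Hic-5 was used, loss of Hic-5 and other effects of that siRNA cannot be told apart. MT1G was higher in siHic5_2 than in siNS at all 4 times, by 4.37-fold at 0 h and by 1.99- to 2.33-fold under hormone. MT1X was higher by 1.89-fold at 0 h, 1.71-fold at 2 h and 1.39-fold at 4 h, and at 24 h its difference did not pass the test. MT1H, near or below background in the controls, was detected only on siHic5_2 arrays. In the limma fit over all probes, with Benjamini-Hochberg adjustment over 20912 probes and a call at an adjusted p under 0.05, 10.8, 11.3, 12.8 and 12.4% of probes were higher in siHic5_2 at 0, 2, 4 and 24 h and 10, 9.34, 13.3 and 11.9% were lower. Leaving out MT1H, which passed the filter only through the siHic5_2 arrays in which it is high, 2, 2, 3 and 1 of the other 6 probes were called higher at these times and 0 lower. The median difference of the 6 was 0.50, -0.07, 0.23 and 0.29, beside 0.00 to 0.01 for all probes. With so few probes these shares are given as a description.

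**Figure D2:**
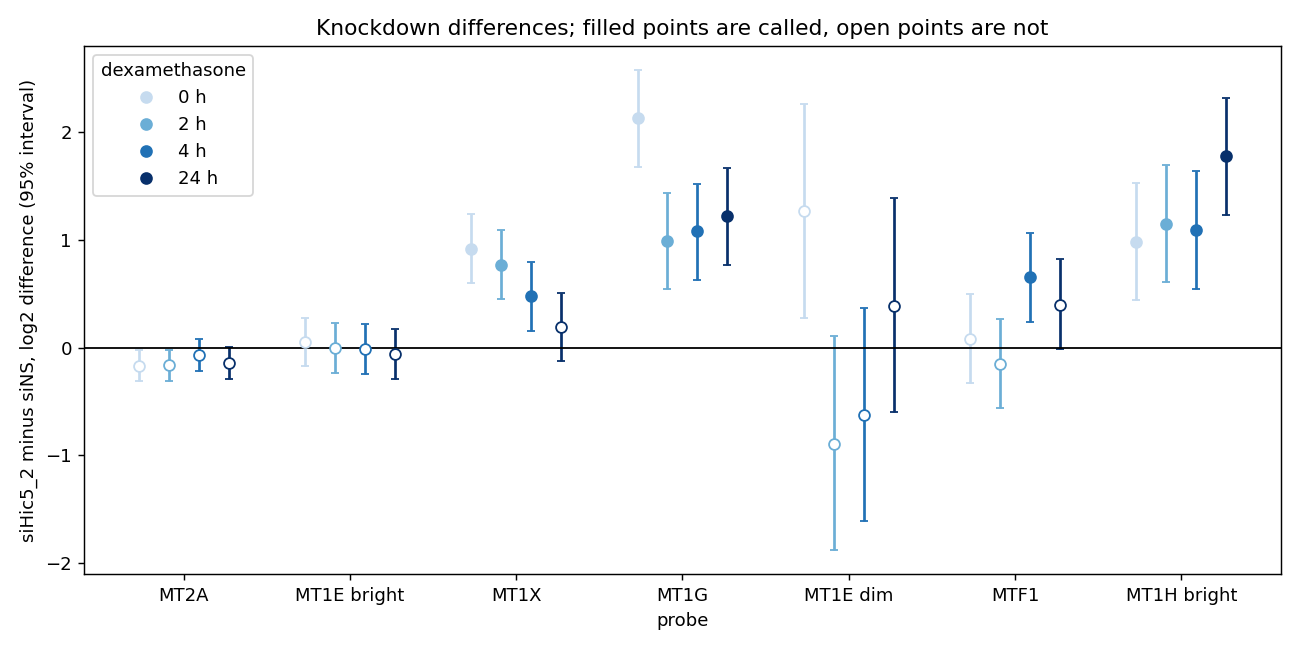
Log2 difference between siHic5_2 and siNS (vertical axis) for each tested probe (horizontal axis) at 4 times, with the 95% interval of the limma fit; filled points passed the test. MT1G is filled at all times and starts highest, at 2.13, MT1X falls from 0.92 to an open point at 0.19, and MT2A and MT1E bright lie along 0.

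MT1G, a zinc-inducible isoform, lay furthest from its controls at 0 h. Before hormone its level was 9.61, 9.83, 9.82 and 9.83 on the 4 siNS arrays and 9.99, 9.68, 10.11 and 9.94 on the NI arrays. On the siHic5_2 arrays it was 11.42, 11.91, 11.87 and 12.42, so every knockdown array stood above every control array. The difference from siNS was 2.13 on the log2 scale (SE 0.22, limma adjusted p = 3.28e-09).

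At 2 h the 4 siNS arrays read 10.78, 10.76, 10.48 and 10.89 for MT1G and the siHic5_2 arrays 11.30, 11.74, 12.17 and 11.68. At 4 h the siNS levels were 11.11, 10.48, 10.71 and 11.25 against 11.65, 12.11, 12.21 and 11.88. At 24 h they were 10.86, 11.49, 10.89 and 11.13 against 12.39, 12.30, 12.33 and 12.25. At none of these times did the groups overlap. MT1G differences were 0.99, 1.08 and 1.22 (SE 0.22 each; limma adjusted p = 0.00101, 0.000329 and 5.59e-05). Against NI, the other control, they were 1.97, 1.40, 1.26 and 1.06 from 0 to 24 h, with adjusted p from 1.59e-08 to 0.000343 and no overlap. Within slides that held both siNS and siHic5_2 arrays the MT1G difference had the same sign throughout, from 1.60 to 2.59 on 4 slides at 0 h and from 0.90 to 1.44 on 3 slides at 24 h.

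MT1X, an MT1 isoform found in many tissues, followed with smaller differences. Its level at 0 h was 12.43, 12.30, 12.11 and 12.68 on siNS arrays and 13.22, 13.37, 13.42 and 13.19 on siHic5_2 arrays, with no overlap. The difference was 0.92 (SE 0.16, limma adjusted p = 3.44e-05). At 2 h the siNS levels were 12.50, 12.63, 12.44 and 13.03 and the siHic5_2 levels 13.44, 13.35, 13.36 and 13.54, a difference of 0.77 (adjusted p = 0.000353). The groups were again apart.

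At 4 h the MT1X levels were 12.90, 12.93, 12.88 and 13.14 in siNS and 13.47, 13.33, 13.43 and 13.52 in siHic5_2, a difference of 0.48 with a limma adjusted p of 0.0209. This call was lost, at adjusted p = 0.0778, when arrays were centred on their medians instead of quantile normalized, and at 0.0508 to 0.0595 without siHic5_2 replicate 4 or siNS replicate 1 or 3 of that time. At 24 h the levels were 14.02, 14.06, 14.03 and 14.06 in siNS and 14.10, 14.27, 14.31 and 14.27 in siHic5_2. The MT1X groups did not overlap there either, and the sign was the same on 3 of 3 slides that held both, but the difference of 0.19 (95% interval -0.12 to 0.51, adjusted p = 0.427) did not pass. Against NI the MT1X differences were 0.92, 0.79, 0.41 and 0.21, of which the first 3 passed. With siHic5_2 set against NI, 2, 2, 2 and 1 of the 6 probes other than MT1H were called higher, where 11.4, 11.3, 13.4 and 14.1% of all probes were.

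The 24 h levels of MT1X lie near the upper end of the scale. Among all probes of its array MT1X ranked 209 to 227 from the top in siNS at 24 h and 68 to 189 in siHic5_2. At 0 h it ranked 846 to 1304 and 461 to 560. Unnormalized intensities of MT1X at 24 h were 14528.6 to 19053.5 in siNS and 14351.9 to 21670.3 in siHic5_2, below the highest intensity on any array, 32236. What part the bright end of the scale has in the small 24 h difference was not tested.

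MT2A, the most abundant metallothionein of many human cells, was near the top of every array, ranking 4 to 177 among 47323 probes. Its level at 0 h was 14.44, 14.34, 14.53 and 14.43 in siNS, 14.47, 14.50, 14.49 and 14.46 in NI and 14.30, 14.29, 14.18 and 14.31 in siHic5_2. On this normalized scale the knockdown arrays were the lowest and did not overlap either control. Unnormalized intensities at 0 h did overlap, at 15922.4 to 23756.2 in siHic5_2, 17268.7 to 25628.5 in siNS and 19817.7 to 25834.1 in NI. The normalized MT2A difference from siNS was -0.17, -0.16, -0.07 and -0.14 from 0 to 24 h (SE 0.07 each). None passed the limma test (adjusted p = 0.105, 0.11, 0.551 and 0.18). Against NI the 0 h value, -0.21, passed at an adjusted p of 0.0332, in a comparison where 10.4% of all probes were lower. Over the 4 times together, a contrast added after seeing the data, MT2A fell by 0.13 (adjusted p = 0.00228), where 23.1% of all probes were called lower. That contrast called MT1G, MT1X and MTF1 higher, by 1.35, 0.59 and 0.25 (adjusted p = 3.35e-13, 4.59e-08 and 0.0434), along with MT1H and 25.2% of all probes. In direction MT2A ran against MT1G and MT1X, with a signal 1.1-fold lower. Dexamethasone did not move MT2A past the test: its level at 24 h in siNS was 14.42, 14.40, 14.37 and 14.42, a difference from 0 h of -0.03 with a 95% interval of -0.18 to 0.11. The highest normalized value of any probe was 14.61, and what part the top of the scale has in the small differences of MT2A was not tested.

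MT1E had 2 probes that disagreed. The MT1E bright probe read 13.90 to 14.53 over the 48 arrays, and neither knockdown nor hormone moved it past the test in any state, its knockdown differences lying between -0.06 and 0.05. The MT1E dim probe read 5.52 to 9.60 and was above background on 45 arrays. Its knockdown differences were 1.27, -0.89, -0.62 and 0.39 (SE 0.49 each), of which none passed (limma adjusted p = 0.0601, 0.216, 0.384 and 0.641). The 0 h difference of the MT1E dim probe passed with the replicate block (limma adjusted p = 0.0152), although same-numbered siNS and siHic5_2 arrays did not deviate together. Over all probes that block called 2798 higher at 0 h, where the main fit called 2251. The MT1E dim difference also passed without siNS replicate 1 or siHic5_2 replicate 3 of 0 h. Transcripts of the family are much alike in sequence, the probe sequences are not used here, and how much of each signal came from other family members was not tested.

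MT1H, MT1F and MT1M were silent or nearly so in the controls. The MT1H bright probe read 4.64 to 5.09 on the 32 control arrays, where it was above background on 0, and 4.94 to 7.43 on the 16 siHic5_2 arrays, where it was above background on 8. At 24 h its level was 5.60, 7.07, 6.56 and 7.43 in siHic5_2 against 5.09, 4.80, 4.80 and 4.85 in siNS, with no overlap. MT1H was there at least 1.36-fold higher by its bound against background (limma adjusted p = 3.08e-06 for a fitted difference of 1.78), and at 0, 2 and 4 h no fold is given because the bound was under 1. Having passed the filter only through siHic5_2, it is no independent support for a rise of the family.

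The MT1H dim probe was above background on 1 array, a siHic5_2 array at 4 h that read 6.29. MT1F was also above background on 1 array, at 24 h in siHic5_2, where it read 5.29, 6.13, 6.29 and 6.16 against 5.20, 5.22, 5.10 and 4.80 in siNS. The 4 knockdown values were the 4 highest of the 8. With 1 array above background, no size is given for MT1F. MT1M was above background on 0 arrays and read 4.56 to 5.07.

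MTF1, the regulator, had levels of 7.38 to 9.09 and was above background on 48 arrays. In siHic5_2 it read 8.08, 7.99, 8.74 and 8.71 at 4 h against 7.69, 7.64, 7.73 and 7.83 in siNS, a difference of 0.66 (SE 0.21, limma adjusted p = 0.0158) with no overlap. This MTF1 call was lost without siHic5_2 replicate 3 (adjusted p = 0.0795) or replicate 4 (0.0782) and with median centring (0.122). At 0, 2 and 24 h the differences were 0.08, -0.15 and 0.40 and did not pass (adjusted p = 0.841, 0.691 and 0.162). Against NI none of the 4 MTF1 differences passed. Over the 4 times together, MTF1 was higher than in siNS by 0.25 (adjusted p = 0.0434) in the contrast added after seeing the data. At 0 h, when MT1G and MT1X differed most, the MTF1 difference had a 95% interval of -0.33 to 0.50.

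Dexamethasone raised MT1X and MT1G in cells with intact Hic-5, by 24 h to 3.16-fold and 2.5-fold of the 0 h level in siNS. In siNS, 2, 3 and 3 of the 6 tested probes other than MT1H were called higher than at 0 h after 2, 4 and 24 h, where 1.8, 3.57 and 16% of all probes were called higher. In NI the counts were 0, 2 and 3, where 1.3, 3.76 and 15.5% of all probes were higher. In siHic5_2 they were 0, 0 and 1, MT1X at 24 h, against 1.31, 4.5 and 14.4%. MT1H was also called at 24 h in siHic5_2, but it passed the filter only through the siHic5_2 arrays and is left out of these counts. MT2A, MT1E bright and MTF1 passed the test in none of the 9 hormone contrasts.

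**Figure D3:**
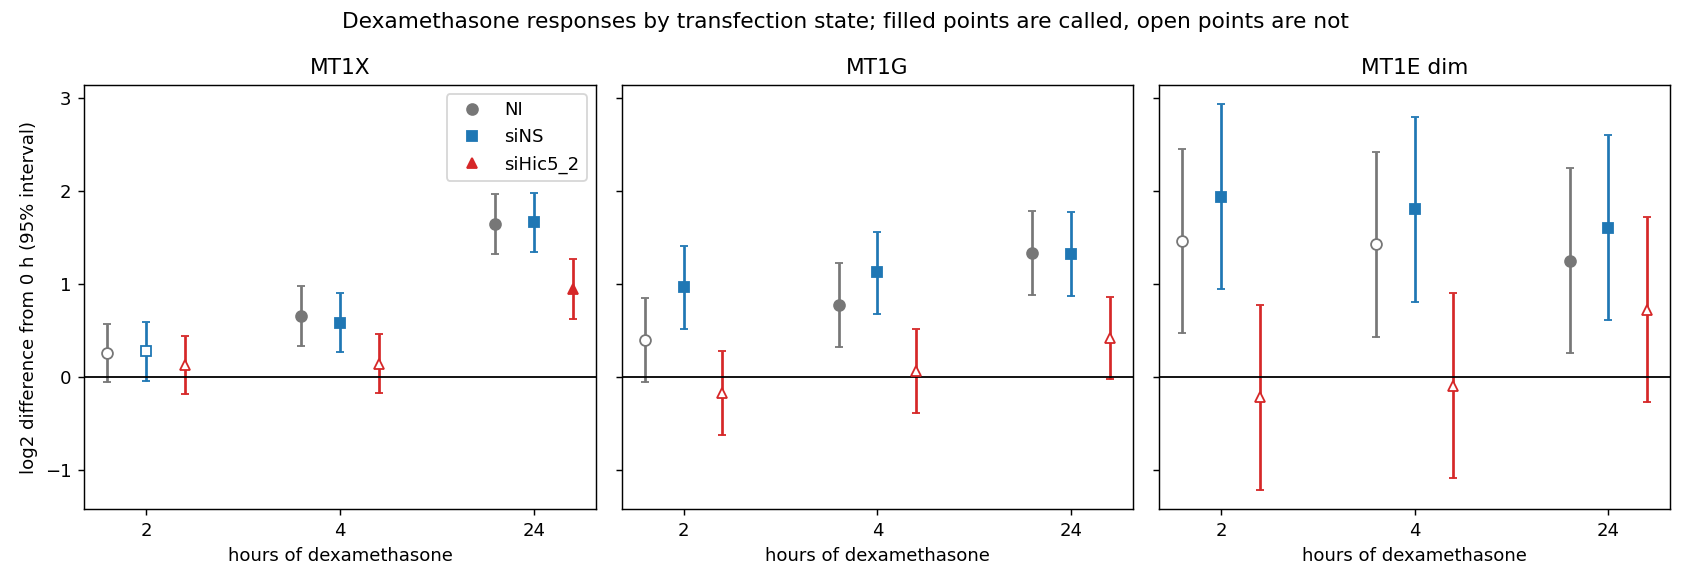
Log2 difference from 0 h (vertical axis, with the 95% interval of the limma fit) at 2, 4 and 24 h of dexamethasone for MT1X, MT1G and the MT1E dim probe, by transfection state; filled points passed the test. The siHic5_2 triangles lie below both controls in each panel, and for MT1X at 24 h they stand at 0.94 against 1.66 in siNS and 1.64 in NI.

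MT1X rose stepwise. From the 0 h levels given above, the siNS response was 0.27 at 2 h (limma adjusted p = 0.475), 0.58 at 4 h (0.0143) and 1.66 at 24 h (2e-11; SE 0.16 each), that is 3.16-fold at 24 h. In NI the level went from 12.59, 12.19, 11.96 and 12.80 at 0 h to 14.00, 14.12, 13.91 and 14.06 at 24 h, with responses of 0.25, 0.65 and 1.64 at 2, 4 and 24 h (adjusted p = 0.76, 0.0047 and 2.85e-11). Most of the rise fell after 4 h: MT1X gained a further 1.08 between 4 and 24 h in siNS (adjusted p = 8.72e-07) and 0.99 in NI (4.55e-06), and it was the 1 member called in either, where 13.8 and 12.9% of all probes were higher. The 4 h call in siNS was lost with median centring (adjusted p = 0.0744) and without siNS replicate 3 of 0 h (0.0874) or replicate 4 of 4 h (0.0648), and that in NI without NI replicate 3 of 0 h (0.0518).

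In siHic5_2 the MT1X response was 0.12 and 0.14 at 2 and 4 h, neither past the test, and 0.94 at 24 h (limma adjusted p = 7.97e-06), or 1.92-fold. The response in siHic5_2 minus that in siNS was -0.15, -0.44 and -0.72 (SE 0.22), with adjusted p of 1, 0.697 and 0.071, and this difference of responses was called for 0.11, 0.383 and 2.81% of all probes. The replicate number was also used as a block within each transfection state, which removes the spread shared by arrays of the same number. The MT1X value of -0.72 then passed at a limma adjusted p of 0.00336, and with the slide as a block it was -0.78 at 0.0351. Over all 20912 probes that replicate block called 749 higher and 720 lower, and the slide block 292 higher and 296 lower. The main fit called 293 higher and 294 lower. The MT1X value also passed without siNS replicate 4 of 0 h. With median centring the adjusted p was 0.279. The smaller log2 response started from a higher level. On the linear scale of the normalized values MT1X gained 11482.2 ± 816.0 in siNS, 11204.3 ± 1420.3 in NI and 9231.4 ± 955.8 in siHic5_2 from 0 to 24 h (mean ± SD over pairs of the same replicate number, n = 4), from 5387.7 ± 907.3, 5476.8 ± 1419.1 and 10099.8 ± 772.2. The linear gains were not tested.

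MT1G passed the test at all 3 hormone times in siNS and at 4 and 24 h in NI. In siNS its response was 0.96 at 2 h, 1.12 at 4 h and 1.32 at 24 h (SE 0.22; limma adjusted p = 0.00554, 0.000418 and 6.6e-06), and no hormone array overlapped the 0 h arrays. The 2 h call was lost with the slide as a block (0.82, adjusted p = 0.056). In NI the MT1G level moved from 9.99, 9.68, 10.11 and 9.94 at 0 h to 10.48, 10.20, 10.46 and 10.15 at 2 h, 10.92, 10.75, 9.98 and 11.14 at 4 h and 10.74, 10.89, 11.51 and 11.90 at 24 h. The NI responses were 0.39, 0.77 and 1.33, of which the 2 h value did not pass (adjusted p = 0.69). Whether siNS and NI differed in the 2 h response was tested directly, and the difference of 0.57 (95% interval -0.07 to 1.20, adjusted p = 1) did not pass. That limma contrast called 0 of all probes and had 476 at an unadjusted p under 0.05. It does not use the pairing of same-numbered arrays, so a small difference could be missed. The 4 h call in NI was lost without replicate 1, 2 or 4 of 4 h or replicate 2 of 0 h (adjusted p = 0.0619 to 0.139).

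In siHic5_2 MT1G did not change past the test at any time, with responses of -0.18, 0.06 and 0.41 (limma adjusted p = 1, 0.928 and 0.169). Its responses minus those in siNS were -1.13, -1.05 and -0.91 (SE 0.31). These passed at no time after adjustment (adjusted p = 0.315, 0.16 and 0.128, unadjusted p = 0.000844, 0.00176 and 0.00617), nor with the replicate block (adjusted p = 0.114, 0.0661 and 0.0556). By 24 h MT1G in siNS had a mean of 11.09, still below the mean of 11.90 in siHic5_2 before hormone. On the linear scale its gain from 0 to 24 h was 1346.0 ± 439.9 in siNS, 1605.8 ± 947.7 in NI and 1158.9 ± 1331.9 in siHic5_2 (mean ± SD, n = 4), from 875.8 ± 63.2, 981.2 ± 119.0 and 3939.9 ± 1130.2.

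The MT1E dim probe rose with hormone in siNS, from 7.63, 5.52, 5.96 and 6.28 at 0 h to 9.60, 7.41, 7.74 and 8.36 at 2 h, with every array up on its same-numbered partner by 1.78 to 2.09. The mean response was 1.93 at 2 h, 1.80 at 4 h and 1.60 at 24 h (SE 0.49; limma adjusted p = 0.0137, 0.0154 and 0.00947). Leaving out siNS replicate 2 of 0 h lost all 3 calls (adjusted p = 0.0729, 0.0893 and 0.0514), and replicate 3 of 0 h or replicate 1 of the hormone time lost the 2 and 4 h calls (0.0518 to 0.124). In NI the MT1E dim responses were 1.46, 1.43 and 1.24, of which the 24 h value was called (adjusted p = 0.0483) and lost in 10 of 15 alternatives. With the replicate block within each state all 3 NI responses passed (limma adjusted p = 2.26e-05, 1.29e-05 and 2.58e-05). That block called 419, 1161 and 4065 of all probes higher in NI, where the main fit called 271, 787 and 3243.

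In siHic5_2 the MT1E dim probe read 7.23, 7.63, 6.90 and 8.72 at 0 h and 7.00, 7.37, 7.54 and 7.66 at 2 h, with overlapping groups and a response of -0.22. At 4 h the response was -0.10 and at 24 h 0.72, none past the test. The 0.72 of the MT1E dim probe passed with the replicate block within each state, an alternative added after seeing the data (limma adjusted p = 0.01). It did not pass with the plain replicate block (0.168). The block within each state called 3926 of all probes higher at 24 h, where the main fit called 3018. The responses in siHic5_2 minus siNS were -2.16, -1.89 and -0.88 (SE 0.69) with adjusted p of 0.602, 0.372 and 0.711. With the replicate block within each state the 2 and 4 h values of the MT1E dim probe passed (limma adjusted p = 0.000173 and 0.000753) and the 24 h value did not (0.0959). Over all 20912 probes that block called 16 higher and 43 lower at 2 h, and 95 and 179 at 4 h. The main fit called 2 and 21 at 2 h, and 27 and 53 at 4 h. The block rests on the replicate numbers pairing the arrays of a state across times, which held for every pair in siNS and for 3 of 4 pairs in siHic5_2 at 2 h.

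**Figure D4:**
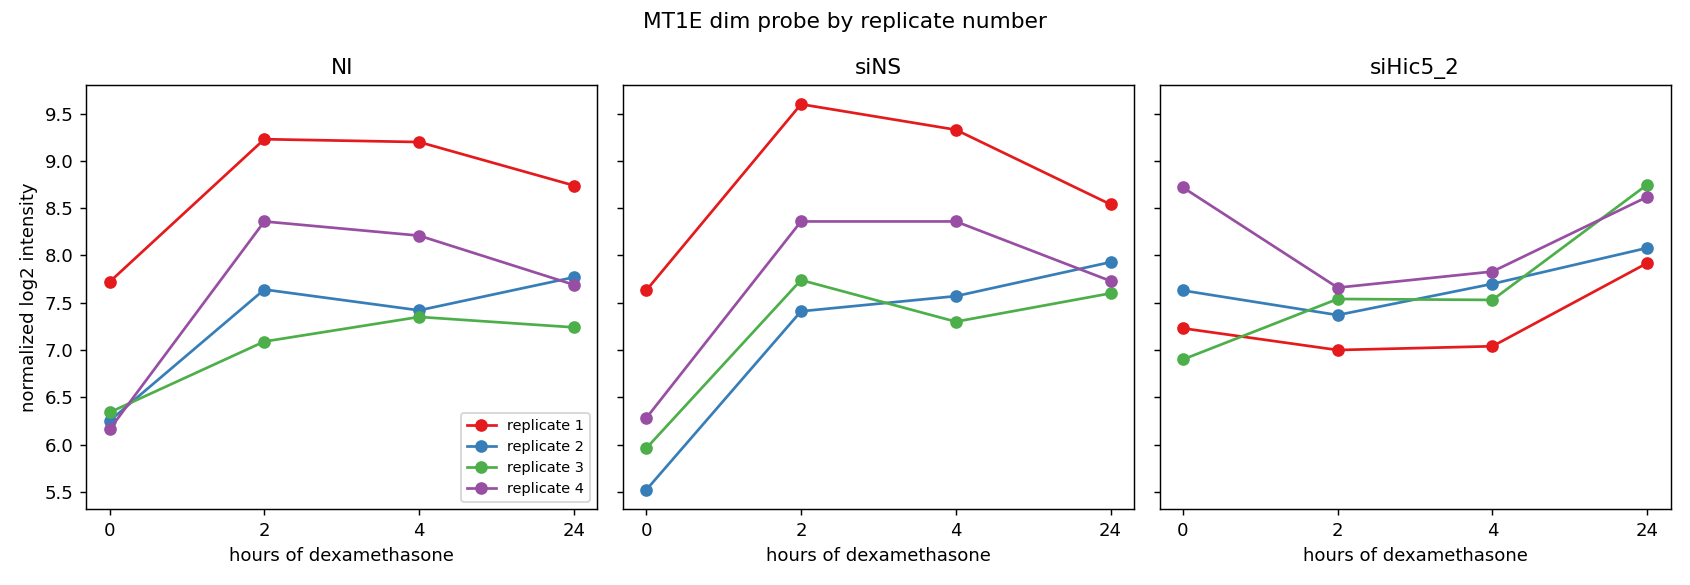
Normalized log2 intensity of the MT1E dim probe (vertical axis) against hours of dexamethasone in each transfection state, with 1 line for each replicate number. Replicate 1 is the highest line at every time in NI and siNS (7.63 to 9.60) and the lowest at 2, 4 and 24 h in siHic5_2 (7.00 to 7.92).

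The spread of the MT1E dim probe followed the replicate number. Replicate 1 was the highest of 4 in NI (7.72, 9.23, 9.20 and 8.74 from 0 to 24 h) and in siNS (7.63, 9.60, 9.33 and 8.54) at every time. In siHic5_2 replicate 1 read 7.23, 7.00, 7.04 and 7.92 and was the lowest at 2, 4 and 24 h. What the replicate numbers share is not given in the labels.

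The 12 group means also ordered the members against each other. As a description over 12 group means that share their arrays, MT1G and MT1X had a Pearson r of 0.795, MT1G and MT1H bright 0.847, and MT1G and MT2A -0.932. MTF1 had 0.534 with MT1G and 0.539 with MT1X. MT1H bright was above background only on siHic5_2 arrays, which limits its value. TGFB1I1, the target of the siRNA, had 0.920 with MT2A, -0.912 with MT1G and -0.624 with MT1X. The likeness of MT1G and MT2A to other genes therefore cannot be told apart from the split between siHic5_2 and control groups. Among 11880 genes outside the members, the 5 whose group means were most like MT1X were SESN1 (r = 0.988), a stress-responsive sestrin, NSG1 (0.988), PRDX6 (0.987), a peroxide-reducing peroxiredoxin, PITPNC1 (0.985), a phosphatidylinositol transfer protein, and SERINC1 (0.985). For MT1G they were BLOC1S4 (0.974), PRPF18 (0.970), a splicing factor, RGL1 (0.968), ELOVL4 (0.968), a fatty acid elongase, and PRKX (0.967). For MT2A they were SNRNP70 (0.983), a protein of the U1 spliceosome particle, PPP2R3A (0.962), GEMIN6 (0.958), DDX23 (0.957), an RNA helicase of the spliceosome, and TOMM70 (0.953), a mitochondrial import receptor.

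Genes beside the cluster were looked at as well. Of 7 protein-coding genes within 250 kb, 4 were tested (NUDT21, OGFOD1, BBS2 and NUP93). BBS2, a component of the BBSome of the cilium, was higher in siHic5_2 by 0.71, 0.95 and 0.65 at 0, 2 and 4 h (limma adjusted p = 0.000993, 2.3e-05 and 0.00201), not past the test at 24 h (0.38, adjusted p = 0.0784), and higher after 24 h of hormone in siNS by 0.69 (0.000619). NUDT21, a subunit of a cleavage factor for mRNA 3′ ends, was higher in siHic5_2 at 2 h by 0.50 (adjusted p = 0.0365) and OGFOD1, a prolyl hydroxylase, at 24 h by 0.33 (0.03). NUP93, a nucleoporin, passed in no knockdown contrast and was lower after 24 h of hormone in siNS by a difference of -0.61 (adjusted p = 0.00107), where MT1X rose by 1.66.

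Zinc transporters are the partners of metallothioneins in zinc handling: SLC30A proteins move zinc out of the cytosol and SLC39A proteins move it in. Of 24 such genes 17 were tested, and 4, 3, 2 and 3 were higher in siHic5_2 than in siNS at 0, 2, 4 and 24 h while 5, 3, 5 and 3 were lower. Over all probes 10.8, 11.3, 12.8 and 12.4% were higher and 10, 9.34, 13.3 and 11.9% lower. The list counts use the brightest tested probe of each gene. In a run on only such probes, 1638, 1704, 1933 and 1876 of 11886 genes were higher at these times. In that run 1440, 1365, 1674 and 1653 were lower. The median difference of the 17 was 0.03, 0.00, -0.21 and 0.20. The counts of genes called higher and the median include SLC30A2, which was called at each time and was not above background in siNS. Its call is therefore no independent support for a rise of these genes. SLC30A1, a zinc exporter at the cell surface that MTF1 is known to drive, differed by -0.31, -0.11, -0.27 and 0.25 at these times and passed at none (limma adjusted p = 0.151, 0.681, 0.192 and 0.253). With hormone SLC30A1 changed by -0.69 at 2 h in siNS (adjusted p = 0.00356), by -0.64 and -0.57 at 2 and 4 h in NI (0.00968 and 0.0133) and by 0.77 at 24 h in siHic5_2 (0.000121). Whether zinc or MTF1 has a part in the metallothionein differences was not tested.

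**Figure D5:**
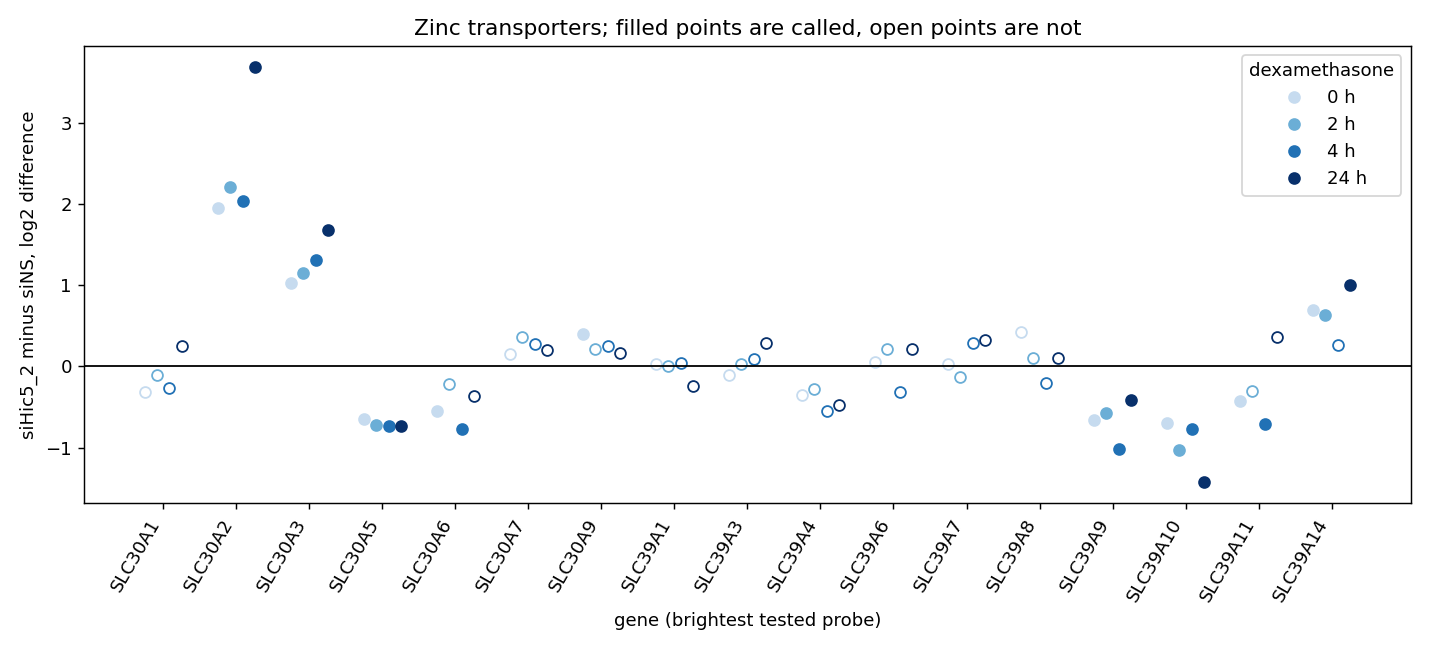
Log2 difference between siHic5_2 and siNS (vertical axis) for the 17 tested zinc transporters (horizontal axis, brightest tested probe of each gene) at 4 times; filled points passed the test. SLC30A2, which was not above background in siNS so that its fitted 3.70 at 24 h is no measured size, and SLC30A3, at 1.69, lie highest, SLC39A10 lowest at -1.43, and SLC30A1 has open points throughout.

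SLC30A2, which loads zinc into vesicles, was above background on 4 of 4 siHic5_2 arrays and 0 of 4 siNS arrays at each time, and was at least 1.79-, 2.01-, 2.06- and 6.98-fold higher by its bound. Another SLC30A2 probe differed by 0.04, 0.07, 0.65 and 1.69. SLC30A3, a vesicular zinc transporter, was higher by 1.03, 1.15, 1.32 and 1.69 (limma adjusted p from 0.000136 to 1.3e-08). SLC39A14, an importer of zinc and iron, was higher by 0.70 at 0 h and 1.00 at 24 h, and SLC39A10, another importer, was lower by a difference of -0.70 and -1.43. After 24 h of hormone in siNS, SLC39A11 rose by 1.86, SLC39A14 by 1.08 and SLC39A6 by 0.40, and SLC30A3 changed by -1.29.

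Other metal and stress genes were counted beside the metallothioneins, in contrasts where 10.8 to 12.8% of all probes were higher and 9.34 to 13.3% lower. These counts also use the brightest probe of each gene, for which the counts over all genes are given with the zinc transporters. Of 15 tested copper and iron genes, 3, 3, 4 and 4 were higher in siHic5_2 at 0, 2, 4 and 24 h and 3, 2, 3 and 1 lower. The copper exporter ATP7B was higher by 0.69, 1.16, 1.24 and 1.06 and the copper transporter SLC31A2 by 1.04, 0.89, 0.96 and 0.65 (limma adjusted p of 0.019 or less). Genes called lower included STEAP3, with differences of -0.86, -0.70 and -0.62 at 0, 2 and 4 h, and COX17, with -0.53 at 2 h. ATP7A was also called lower, at -0.68 at 0 h and -0.60 at 4 h, where it was above background on 1 of 4 siHic5_2 arrays. Of 12 tested oxidative and proteotoxic stress genes, 3, 4, 3 and 6 were higher and 1, 1, 0 and 0 lower. HMOX1, haem oxygenase, was higher by 3.94, 4.05, 4.19 and 2.84 (SE 0.52; adjusted p = 4.36e-07, 2.99e-07, 1.31e-07 and 6.37e-05). NQO1, a quinone reductase, was higher by 1.10 at 24 h (5.35e-05), where its other probe differed by 0.17. Whether these stress genes have a part in the rise of MT1G and MT1X was not tested.

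The 12 glucocorticoid-induced genes put the metallothionein response beside the hormone's usual targets. In siNS at 24 h 11 of them were higher and 1 lower, with a median response of 2.22, where 16% of all probes were higher, among them TSC22D3, the leucine zipper protein GILZ, at 4.49 and TXNIP, an inhibitor of thioredoxin, at 4.99. MT1X at 1.66 and MT1G at 1.32 lay below that median. The response in siHic5_2 minus that in siNS at 24 h was called lower for 5 of the 12 and higher for 0, where 2.81% of all probes were called in either direction, among them FKBP5, a chaperone of the receptor, at -1.36 (limma adjusted p = 0.000137) and SCNN1A, an epithelial sodium channel subunit, at -2.01 (0.00297). Before hormone 5 of the 12 were higher and 1 lower in siHic5_2 than in siNS, with a median difference of 0.61, where 10.8% of all probes were higher, and TSC22D3 differed by 1.67 (adjusted p = 9.83e-11). Other TSC22D3 probes differed there by 0.15 and 1.79. These list genes and the members share their control arrays. Each list gene is its brightest tested probe. In the run on the brightest probe of 11886 genes, 2337 were higher in siNS at 24 h and 1638 in siHic5_2 at 0 h. The difference of responses at 24 h was there called higher for 195 and lower for 223.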

How the data were processed

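Per the file headers, 1 deposited table gives for every probe and array an intensity before normalization and a detection p-value. The other deposited table gives log2 values processed by the authors; their normalization is not given in any source used here, and the submitters' processing notes name R 2.15.3 and limma 3.14.4. The deposited p-values stand under other array names (0 of 48 columns matched their own array, 32 matched another), so detection was recomputed against 770 negative-control rows. The neqc method of limma 3.58.1 under R 4.3.3 (offset 16, quantile, log2) was applied to the intensities. Probes with detection p under 0.01 on at least 4 arrays were kept (20912), and 1 limma model of 12 group means with 36 residual degrees of freedom was fitted, with Benjamini-Hochberg adjustment per contrast and calls at an adjusted p under 0.05. The array number, 4 per group, limits the precision: the median SE was 0.221 for a difference. The fit was tested on simulated data. Where a group had no array above background, the fold is a bound: each dim array was given the lowest signal called above background on it, or the probe's own if higher, before the means were compared. Gene names came from the platform annotation (30113 probes with 1 symbol, 8 with several, 17202 unnamed here) and promoters from RefSeq, GRCh38.p14.

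Members, pathway lists and markers were chosen with earlier results of these data known. The text names all members, at most the 4 called list genes of largest difference per contrast described, SLC30A1 and cluster neighbours chosen after their values were seen, and the 5 genes most like MT1X, MT1G and MT2A. Deviations of same-numbered arrays from their group means correlated over 0.1 for every pair across times in NI and siNS. In siHic5_2 they did so for 3 of 4 pairs at 2 h and 4 of 4 at 4 and 24 h. Between siNS and NI, 4 of 4 pairs did so at 0, 2 and 4 h and 3 of 4 at 24 h. Between siNS and siHic5_2, 0 pairs did so (-0.222 to 0.078). The controls thus shared a pattern by replicate number that the siHic5_2 arrays did not share, and what lies behind it was not tested. Numbers were taken to pair arrays within a state, and the block within transfection bears on hormone responses only. Alternatives were the authors' table, normexp with offset 50, median centring, no filter, slide and replicate blocks, the brightest probe per gene and leaving out each array.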

Additional observations from a re-analysis of the deposited data

Results flagged for a closer look

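Of 84 groups of 4 arrays checked (7 tested probes in 12 groups), 7 held an array far from the other 3, where chance gives about 1 in 20 groups. They were MT1E bright in NI at 2 h (replicate 4 at 14.51) and in siNS at 4 h (replicate 4 at 14.06), MT1E dim in NI at 0 h (replicate 1 at 7.72) and MT1G in siNS at 0 h (replicate 1 at 9.61). The others were MT1H bright in siNS at 24 h (replicate 1 at 5.09, below background) and MTF1 in NI at 0 h (replicate 1 at 8.24) and in siNS at 2 h (replicate 4 at 7.38).

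The hormone response of the MT1E dim probe differed between siHic5_2 and siNS by -2.16 at 2 h and -1.89 at 4 h in the limma test of the difference with the replicate block within transfection (adjusted p = 0.000173 and 0.000753), and that of MT1X by -0.72 at 24 h (adjusted p = 0.00336). In the main fit, which has no block, none of these passed, and fewer of all probes were called in these contrasts. The MT1X difference also passed with the slide as a block and with the plain replicate block. Among probes outside the tested set, MT1F reached 6.29 at 24 h and the MT1H dim probe 6.29 at 4 h, each above background on 1 siHic5_2 array and on 0 control arrays.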

How the results depend on the processing

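None of the calls reversed under any alternative run. MT1G kept its knockdown call at all 4 times under 16 of 16 alternatives (lowest differences 1.96, 0.84, 0.94 and 1.14), and MT1X at 0 and 2 h under 16 of 16. Counts of called probes in this section include MT1H, and moved by over 1.5 times as follows. Median centring gave 2 in place of 4 for the knockdown at 4 h, losing MT1X and MTF1. Over all 20912 probes it called 1536 higher and 2148 lower there, against 2670 and 2776 in the main fit. The slide block gave 1 in place of 2 for hormone in siNS at 2 h and 1 in place of 0 for hormone in siHic5_2 at 4 h (MTF1). It gave 1 for the difference of responses at 24 h (MT1X). Over all probes, higher and lower, the slide block called 290 and 207 in the first of these contrasts, against 376 and 441. In the second it called 916 and 822, against 941 and 1086. Taking the brightest probe per gene, which leaves out MT1E dim, gave 1 for hormone in siNS at 2 h. The replicate block, with and without nesting in transfection, gave 1 in place of 0 for hormone in NI at 2 h (MT1E dim) and 1 for the difference of responses at 24 h (MT1X). Nested, it gave 1 for that difference at 2 h and 1 at 4 h (MT1E dim), and was chosen after seeing the data. Fitted with no filter, the difference at 24 h gave 1 (MT1F), where 276 and 258 of 47323 probes were higher and lower. Over all tested probes, hormone in NI at 2 h gave 325 and 303 with the replicate block and 419 and 476 nested, against 271 and 216. The difference at 24 h gave 439 and 426 with the replicate block and 749 and 720 nested, against 293 and 294. Apart from where a probe was removed or added, the cause was not tested. The 1 call for the difference of responses at 24 h on leaving out an array was MT1X, without siNS replicate 4 of 0 h. A knockdown call beyond the main 3 at 0 h was MT1E dim, gained with the replicate block and without siNS replicate 1 of 0 h. Leaving out each array gave 3 to 4, 3, 2 to 4 and 2 knockdown calls at 0, 2, 4 and 24 h, 1 to 2, 1 to 3 and 2 to 3 hormone calls in siNS, 0, 0 and 1 to 2 in siHic5_2, and 0, 1 to 3 and 2 to 3 in NI. It gave 0, 0 and 0 to 1 for the differences of responses and 0 for siNS against NI. For these runs no share over all probes is given, so the counts do not speak to the members alone. Signal over background limits MT1H and MT1F, and MT2A, MT1E bright and MT1X at 24 h lie near the top of the scale.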
